A study of Mus musculus with 12 samples.

Results

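The ribosomal protein genes are the genes for the proteins of the cytosolic ribosome. They were taken as every protein-coding symbol in both result tables that begins with Rpl or Rps and a digit, plus Rplp0, Rplp1, Rplp2 and Rpsa, leaving out the Rps6k kinases and Rps19bp. This gave 83 genes of the 12914 genes listed in both tables: 46 large subunit genes, 31 small subunit genes and 6 paralogs (Rpl7l1, Rpl10l, Rpl22l1, Rpl36al, Rpl39l and Rps27l). The blastocyst table held 21 further symbols of this form, 18 of them named as -ps copies, which were not analysed here because the ES cell table does not list them. All 83 had the same gene identifier in both tables and an adjusted p-value in both.

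The study compared mice with and without a working Dis3l gene, which encodes the catalytic subunit of the cytoplasmic RNA exosome, the complex that degrades messenger RNA from its 3′ end. The labels name 12 samples in 4 groups of 3: blastocysts of the genotypes Dis3L KO and Dis3L WT, and mouse embryonic stem (ES) cells of the same genotypes. Blastocysts are preimplantation embryos, here collected from superovulated females and made into libraries one embryo at a time, by tagmentation of cDNA with Tn5 transposase. ES cells are pluripotent cultures grown out of such embryos, here on a layer of inactivated mouse embryonic fibroblasts, and their RNA was depleted of ribosomal RNA and made into stranded libraries. All values below come from 1 table of results per material, with each sign as the authors wrote it, since no source used here says which genotype was divided by which.

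A ribosome is built from a small subunit, which reads the messenger RNA, and a large subunit, which joins the amino acids. Each subunit needs its proteins in matched amounts, and cells make them from messenger RNAs that share a 5′ end beginning with C and a run of pyrimidines, the TOP (terminal oligopyrimidine) motif, through which the mTOR pathway controls their translation. Ribosomal protein messages are abundant in growing cells such as ES cells, are long-lived, and have given rise to many processed copies in the mouse genome.

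Sequence near the start of these genes is given first because the TOP motif, a pyrimidine run, lies at the 5′ end of their messages. The genes themselves were chosen by symbol and not by sequence. RefSeq promoter windows on GRCm38.p6 were found for 63 of the 83 genes. The letters CTTTCC, one form of such a run, were searched on the transcribed strand from 50 bases before to 50 bases after the RefSeq start. They were present in 20 of the 63 ribosomal protein genes (31.7%), against 5.43% of all 27025 genes with a promoter window. On the opposite strand the shares were 3.17% and 5.12%, and anywhere on either strand of the whole 300-base window 54.0% and 29.3%. The same letters near the start on the transcribed strand were found in 7.25% of 69 mitochondrial ribosomal protein genes, 7.14% of 28 translation factor genes, 6.52% of 46 ribosome biogenesis genes and 0 of 13 other ribosome and TOP genes. A match describes these letters only, and other pyrimidine runs were not searched. For 8 of the matching genes that the results below return to, 30 bases are given 5′ to 3′ along the transcribed strand, with the match in capitals.
Rpl26, chr11:68901579-68901608, plus strand: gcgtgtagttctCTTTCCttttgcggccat
Rpl36a, chrX:134585674-134585703, plus strand: gctctagcctctctCTTTCCgagctgctag
Rpl36al, chr12:69184019-69184048, minus strand: ctctgttcgtccCTTTCCtgttcggcgcgt
Rpl39l, chr16:10170210-10170239, plus strand: tagctcccaggcCTTTCCggatttccggtg
Rpl4, chr9:64173358-64173387, plus strand: caagtgacaagtCTTTCCttttcctgtggg
Rpl22, chr4:152325682-152325711, plus strand: tctgactcctccCTTTCCcgacagccgact
Rps10, chr17:27635223-27635252, minus strand: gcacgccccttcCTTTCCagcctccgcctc
Rps27, chr3:90213630-90213659, minus strand: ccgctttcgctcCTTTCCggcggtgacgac
The match began 1 base after the RefSeq start in Rps27, 4 bases after it in Rps10 and 25 bases after it in Rpl26. In Rpl4 it began 17 bases and in Rpl39l 6 bases before the RefSeq start. The match lay farther off in Rpl36a and Rpl36al, 34 and 31 bases after the RefSeq start, and in Rpl22, 32 bases before it. The bases printed for Rpl26, Rpl36a, Rpl36al and Rpl22 therefore do not include the RefSeq start.

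The tables hold means over libraries and no value per sample. A mean is a sum of whole reads, each divided by its library's size factor (relative depth), so the reads in each count column could be solved for where exactly 1 combination gave the mean. The ES cell means were sums over 4 count columns, whereas the labels list 6 ES cell samples. Here 9510 of the 9513 ES cell genes with a mean of 15 to 1000 had exactly 1 solution, among them 66 of the 83 ribosomal protein genes. The blastocyst means were sums over 6 columns, and were solved for the 4 ribosomal protein genes with a mean under 100. Columns are named by the side of the deposited comparison they belong to, positive or negative, and were not assigned to genotypes or samples. Dis3l, the targeted gene, had 14 and 8 reads in the positive-side and 39 and 39 reads in the negative-side ES cell columns. In blastocysts Dis3l had 26, 8 and 0 reads on the positive and 10, 4 and 8 on the negative side, so the sides overlapped there. The labelled tissues were checked by their markers: the authors' means of 8 trophectoderm markers (Krt18 and others), from the deposited tables, summed to 19726 normalised counts in blastocysts and 6 of them to 165 in ES cells, where Eomes, Gata3 and Krt7 were near 0, and 9 pluripotency markers summed to 3579 and 5414. The 9 fibroblast markers were all present in ES cells (lowest mean 19.7), while 6 of the 9 were at 0 in blastocysts. In such bulk samples fewer cells of a type and less RNA per cell cannot be told apart.

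In blastocysts no ribosomal protein gene passed the test. The authors' deposited table had 0 of 83 genes with an adjusted p-value under 0.05 (DESeq2, Wald test), where 0.0986% of all 15209 tested genes passed. Of the 83 genes 1 (1.20%) had an unadjusted p-value under 0.05, against 6.21% of all genes tested, and it was negative, against 3.53% of all genes. The smallest adjusted p-value among the 83 was 0.769. Of the 83 genes 65 (78.3%) lay within 1 standard error of 0, against 62.0% of all tested genes.

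The sign was negative for 63 of the 83 genes, while 51.7% of all tested genes were negative in the authors' deposited blastocyst table. Their median log2 fold change was −0.13 and that of all tested genes −0.04. The 3211 tested protein-coding genes with a mean of at least 200, which are nearer to the ribosomal proteins in level, had a median of 0.02. Large subunit genes had a median of −0.15 and small subunit genes of −0.10, so both subunits lay on the same side of 0. All the genes share the same 6 columns, so their common sign is not 83 separate observations.

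The gene with the smallest p-value in blastocysts was Rpl41 (ENSMUSG00000093674, chromosome 10, 128548114 to 128549305), which encodes the smallest protein of the ribosome. The authors' deposited table gave Rpl41 a mean normalised count of 907, with a log2 fold change of −0.70 ± 0.34 (SE), with p = 0.0378 (0.769 after adjustment). The next most negative Wald statistics belonged to Rpl10, Rpl26, Rpl10l and Rpl7a, with log2 fold changes from −0.37 to −1.21 in the authors' deposited table. The largest of these values, −1.21 for Rpl26 and −1.15 for the paralog Rpl10l, had standard errors of 0.69 and 0.70. On the positive side Rps2, Rpl21, Rpl9, Rps24 and Rps12 had log2 fold changes between 0.23 and 0.30 in the authors' deposited table, each within 1 standard error of 0. In ES cells Rpl41 had a log2 fold change of 0.01 ± 0.23 in the authors' deposited table.

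**Figure D1:**
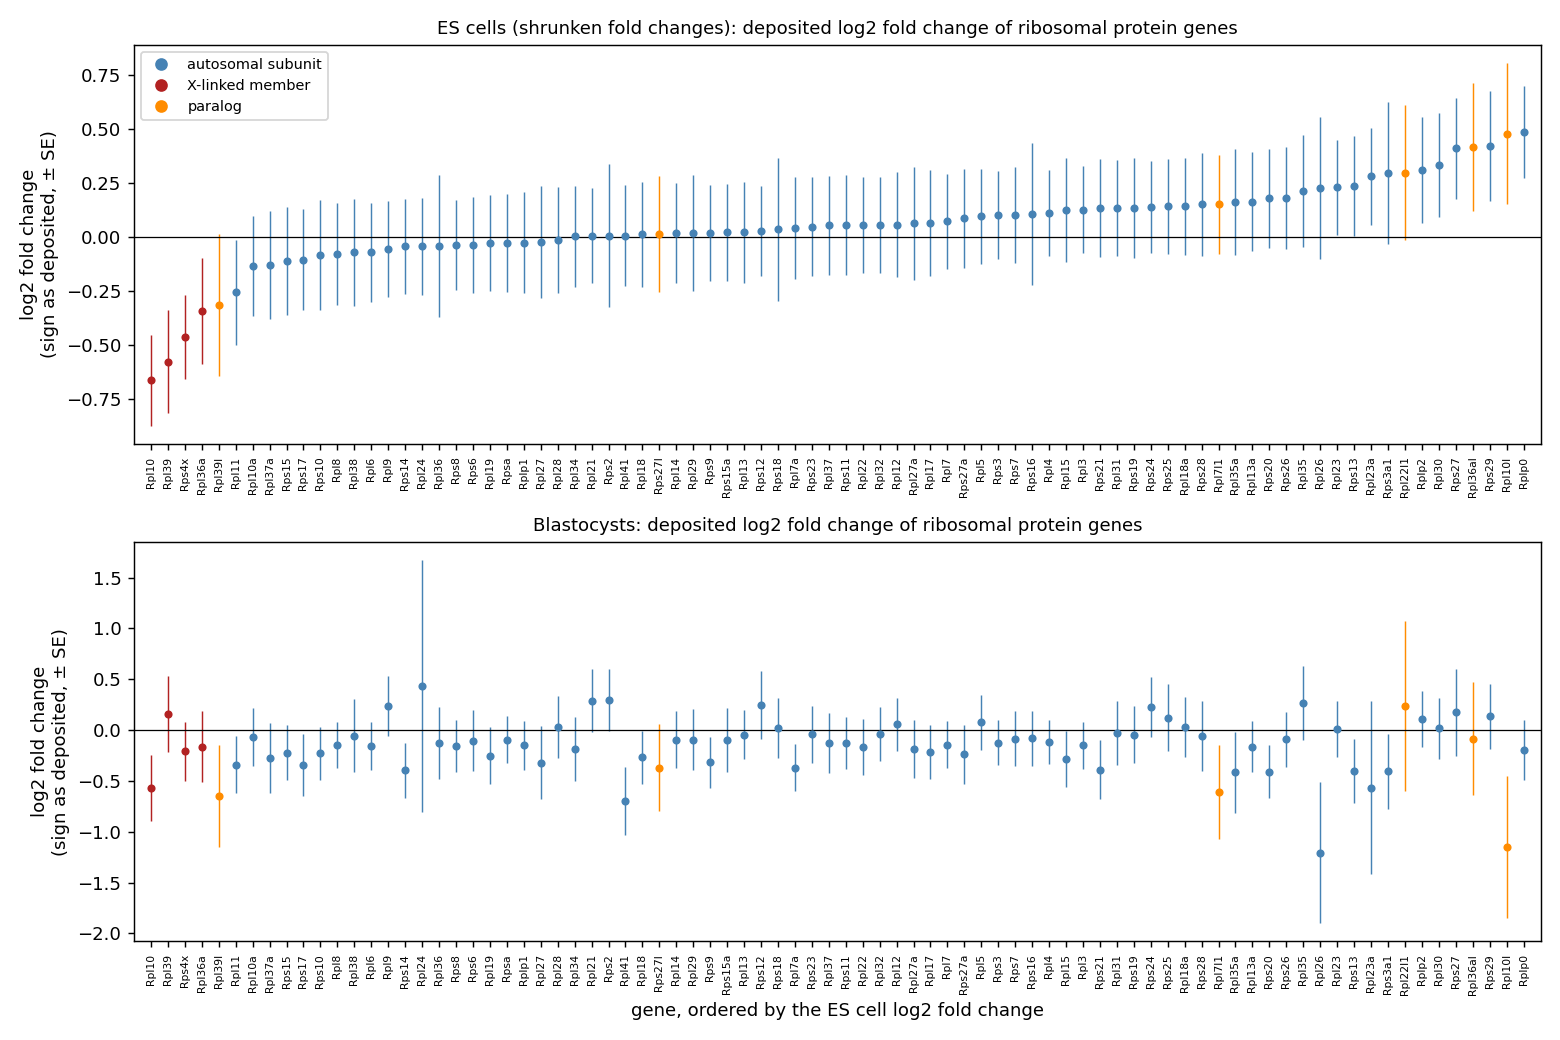
Deposited log2 fold change of 82 of the 83 ribosomal protein genes in ES cells (upper) and blastocysts (lower), in the same gene order; points are values with the sign as deposited and bars are ± 1 standard error. The 4 X-linked genes lie at the negative end of the ES cell panel, and most blastocyst bars reach 0.

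In ES cells too, no ribosomal protein gene passed the test, and the few nearest to it were stalk and X-linked genes. The authors' deposited table had 0 of 83 genes with an adjusted p-value under 0.05 (DESeq2, Wald test), against 0.261% of all 10739 tested genes. Of the 83 genes 4 (4.82%) had an unadjusted p-value under 0.05, against 5.62% of all genes: 3 negative, where the share over all genes was 3.42%, and 1 positive, where it was 2.21%. The ribosomal protein genes' median log2 fold change was 0.05 and that of all tested genes was −0.00. Of the 83 genes 57 were positive, against 50% of all genes. The direction of neither comparison is stated, so signs cannot be compared between ES cells and blastocysts. The ES cell fold changes are shrunken, with a largest standard error of 0.332 over the whole table, so their size cannot be set against that in blastocysts.

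The positive one of the 4 was Rplp0, the base of the ribosomal stalk that recruits translation factors, with a log2 fold change of 0.48 ± 0.21 (SE) in the authors' deposited ES cell table. Its p-value was 0.0225 and its adjusted p-value 0.693 in that table. Its stalk partner Rplp2 had 0.31 ± 0.25 and its other partner Rplp1 −0.03 ± 0.23 in the authors' deposited table, so the 3 stalk genes did not share 1 value. In blastocysts Rplp0 had −0.20 ± 0.30, Rplp2 0.11 ± 0.28 and Rplp1 −0.15 ± 0.24 in the authors' deposited table, all within 1 standard error of 0. The 3 negative genes were all X-linked.

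The X-linked ribosomal protein genes were the part of the family that stood on the negative side in ES cells. All 4 were negative there in the authors' deposited table, as were 296 of the 370 tested X-linked genes of any kind, and 57 of the 79 autosomal ribosomal protein genes were positive. Their median log2 fold change was −0.52, against −0.31 for all tested X-linked genes and 0.06 for the autosomal ribosomal protein genes. Thus the sign of these 4 was that of most of their chromosome. None of the 4 passed the adjusted threshold.

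Rpl10 (ENSMUSG00000008682, X chromosome, 74270812 to 74273135) encodes a large subunit protein that joins late, next to the site where peptide bonds form. The ES cell columns held 549 and 610 of its normalised reads on the positive and 1047 and 894 on the negative side. The sides lay apart, and both negative-side columns were higher, as in 41 of the 58 solved X-linked genes with a mean of 200 to 1000 (70.7%). The authors' deposited table gave a log2 fold change of −0.66 ± 0.21 (SE), with p = 0.00161 and an adjusted p-value of 0.182, the smallest of the 83 genes. In blastocysts the value was −0.57 ± 0.32 in the authors' deposited table, with a p-value of 0.0778.

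Rpl39 (ENSMUSG00000079641, X chromosome, 37082520 to 37085402) encodes a small protein that lines the tunnel through which the new peptide leaves. It had 263 and 298 normalised reads in the positive-side and 376 and 518 in the negative-side columns, again apart. The authors' deposited table gave −0.57 ± 0.24 (SE) in ES cells, with an adjusted p-value of 0.588. In blastocysts Rpl39 was the one X-linked member with a positive sign, 0.16 ± 0.38 in the authors' deposited table.

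Rps4x (ENSMUSG00000031320, X chromosome, 102184941 to 102189394) encodes a small subunit protein. Its ES cell mean of 1908 was too high for its reads to be solved, and the authors' deposited table gave −0.46 ± 0.19 (SE) with an adjusted p-value of 0.639. Rpl36a (ENSMUSG00000079435, X chromosome, 134585654 to 134588062), a large subunit gene with a stretch printed above, had 231 and 278 normalised reads on the positive and 393 and 280 on the negative side. Its sides lay apart by little more than 2 normalised reads, and the authors' deposited table gave −0.34 ± 0.24 (SE). Rpl36al, its autosomal paralog, pointed the other way, with 99.8 and 97.4 normalised reads on the positive and 81.8 and 51.2 on the negative side. Its log2 fold change was 0.41 ± 0.30 (SE) in the authors' deposited ES cell table.

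**Figure D2:**
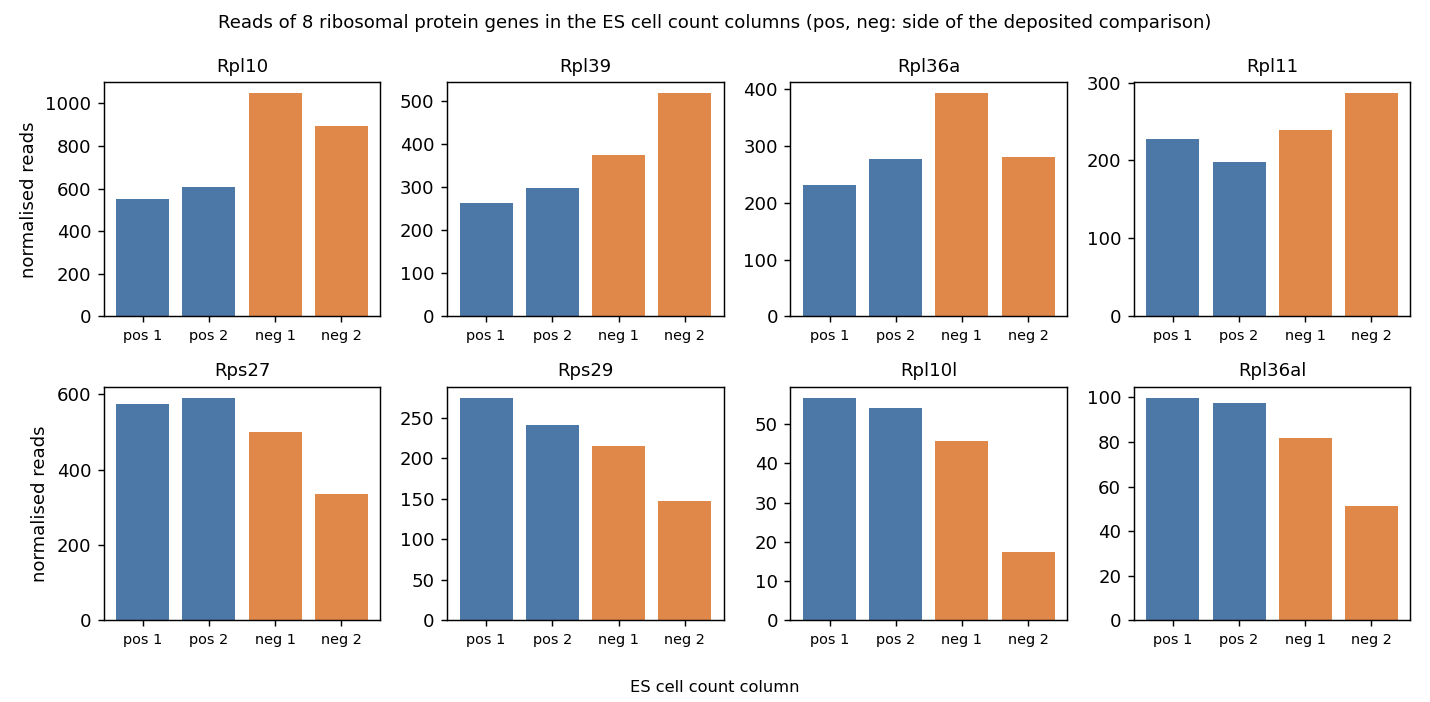
Normalised reads (bars, from 0) of 8 ribosomal protein genes in each ES cell count column, blue for the positive and orange for the negative side of the deposited comparison. Rpl10, Rpl39, Rpl36a and Rpl11 were higher in both negative-side columns, Rps27, Rps29, Rpl10l and Rpl36al in both positive-side columns.

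Column by column, the ribosomal protein genes differed more within the negative side of the ES cell comparison than between the sides. Of the 60 ribosomal protein genes with a mean of 200 to 1000, 57 (95%) had more normalised reads in negative-side column 1 than in negative-side column 2, where 36.5% of all 1731 genes of that level did. In 21 of the 60 (35.0%) the first column was at least 1.5 times the other, against 6.35% of all genes. The gap between these 2 columns was larger than the gap between the sides in 54 of the 60 (90%), against 63.7% of all genes. Negative-side column 2 was the lowest of the 4 columns for 53 of the 60, against 24.4% of all 1731 genes. The positive-side columns, by contrast, had a median ratio of 1.03 over the 60 genes.

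Over all 66 solved genes the median ratio of negative-side column 1 to column 2 was 1.40, with a range of 0.725 to 3.25. Both subunits showed it: the median was 1.46 over 36 large subunit genes and 1.38 over 24 small subunit genes. Their summed normalised reads were 31635 and 30728 in the positive-side and 35257 and 24351 in the negative-side columns. The negative side thus held both the highest and the lowest column, and the positive side lay between them.

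The sign of the ES cell comparison for the family, with 1 column left out at a time, turned only without negative-side column 2. The median log2 ratio of the sides over the 66 genes was 0.06 with all columns. It was −0.14 without negative-side column 2 and 0.33 without negative-side column 1. It was 0.02 and 0.11 without positive-side columns 1 and 2.

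The same 2 columns also differed in other genes. The 9 fibroblast markers summed to 921 and 730 normalised reads in the positive-side and to 832 and 2027 in the negative-side columns, so they were highest where the ribosomal proteins were lowest. Of the 9 markers 7 were higher in negative-side column 2 than in column 1, and 2 (22.2%) were higher in column 1. The share higher in column 1 was 48.0% over all 9510 solved genes and 36.5% over those with a mean of 200 to 1000. The collagen gene Col3a1, with 865 against 53.2 normalised reads, made up most of the difference in the sum. Vim and Thy1 went the other way, with 452 against 561 and 14.5 against 28.5 normalised reads. The 8 solved pluripotency markers summed to 3870, 3133, 4914 and 4239 in the same order of columns. Whether the feeder cells had a part in the ribosomal protein values was not tested.

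Of the other translation lists, the mitochondrial ribosomal protein genes had a median ratio of negative-side column 1 to column 2 of 1.24 over 68 solved genes. Of the 68 genes 56 (82.4%) were higher in column 1, against 48.0% of all 9510 solved genes. The 14 other ribosome and TOP genes had a median ratio of 1.14, the 27 translation factors 1.03 and the 50 ribosome biogenesis genes 1.01. The median was 0.906 over all genes with a mean of 200 to 1000 and 0.984 over all 9510 solved genes. The ribosomal proteins of the cytosol thus had the highest median of these lists, as a description of these 2 columns.

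**Figure D3:**
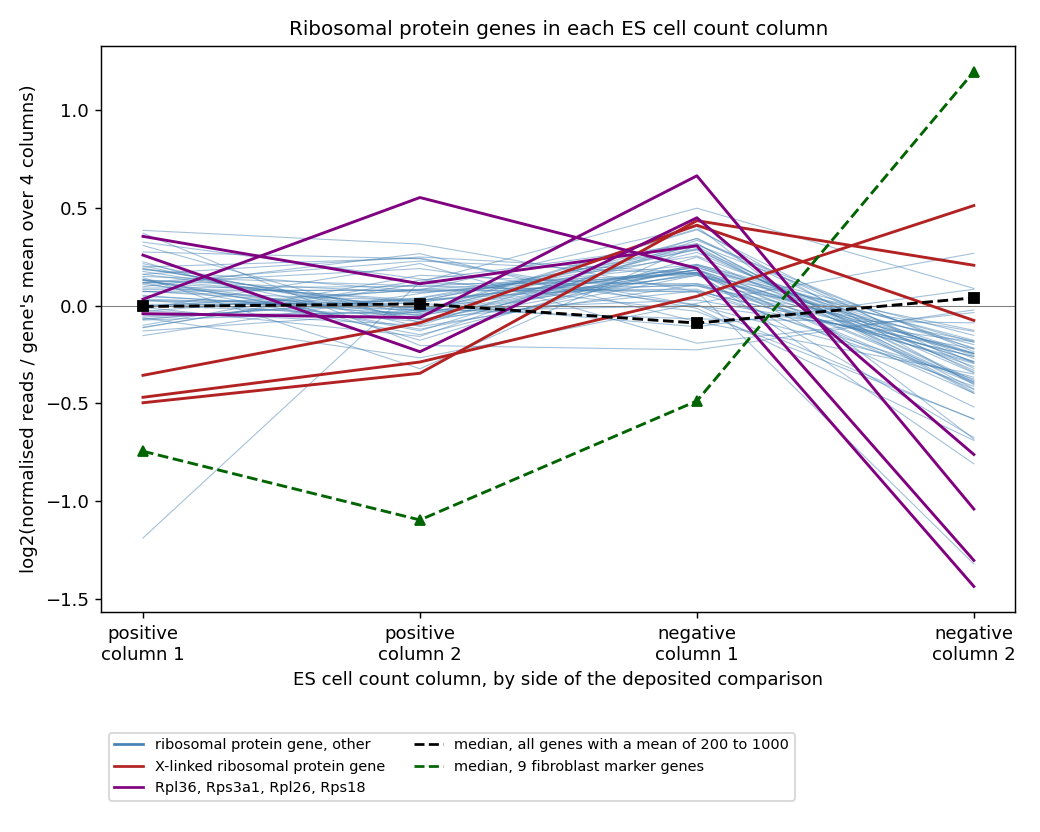
Normalised reads of 66 ribosomal protein genes in the 4 ES cell count columns, as log2 of the ratio to the gene's mean over the columns; each line is a gene, and the dashed lines are medians of all genes with a mean of 200 to 1000 and of 9 fibroblast markers. Most ribosomal protein genes peak in negative-side column 1 and are lowest in column 2, where the fibroblast median is highest (1.20).

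The 4 largest such ratios among the solved genes with a mean above 300 belonged to Rpl36, Rps3a1, Rpl26 and Rps18, which are named here after their values were seen. Rpl36, a large subunit gene, had 351 and 346 normalised reads on the positive and 572 and 176 on the negative side. Rps3a1, a small subunit gene, had 732 and 1050 against 817 and 265. Rpl26, a large subunit gene, had 472 and 399 against 456 and 150. Rps18, a small subunit gene, had 632 and 449 against 722 and 312. The ratios of negative-side column 1 to column 2 were 3.25, 3.08, 3.05 and 2.31 in this order. These 4 and Rps2 also had standard errors above 0.32 in the authors' deposited table, which 17 of the 982 ES cell genes with a mean of 300 to 1200 (1.73%) reached and 5 of the 53 ribosomal protein genes of that level (9.43%).

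Genes whose 2 columns on one side all lay above the 2 on the other were few. Among the 60 genes with a mean of 200 to 1000, the positive side was higher in 8 (13.3%), where the share over all genes of that level was 21.8%. The negative side was higher in 4 (6.67%), where the share was 16.5%. Of these 4, 3 were the X-linked Rpl10, Rpl39 and Rpl36a. Of all 58 solved X-linked genes of that level the negative side was higher in 41 (70.7%), and of the 57 autosomal ribosomal protein genes in 1 (1.75%). The shares of 13.3% and 6.67% were small, and neither was tested against the background.

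Rps27 and Rps29, small subunit proteins with zinc fingers, had the most positive Wald statistics after Rplp0. Rps27 had 573 and 591 normalised reads on the positive and 501 and 334 on the negative side. In the authors' deposited table its log2 fold change was 0.41 ± 0.23 (SE) with a p-value of 0.0785. Rps29 had 275 and 241 against 215 and 147, and the authors' deposited table gave 0.42 ± 0.25 (SE) with a p-value of 0.0968. In both genes the 2 sides did not overlap, and the lowest column was negative-side column 2, as for most of the family.

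Rpl5 and Rpl11 bind the 5S ribosomal RNA and, when free, the p53 regulator MDM2. Rpl11 was the most negative autosomal gene by Wald statistic in ES cells, with 228 and 198 normalised reads on the positive and 240 and 286 on the negative side. It was one of only 3 solved genes with a mean of 200 or more that were not lower in negative-side column 2, with Rpl39 and Rps26. The authors' deposited table gave Rpl11 −0.26 ± 0.24 (SE) in ES cells and −0.34 ± 0.28 in blastocysts, and gave Rpl5 0.09 ± 0.22 and 0.07 ± 0.27. The pair thus had opposite signs, all 4 values within 1.5 standard errors of 0.

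Rps6, the small subunit protein phosphorylated by the S6 kinases, had 511 and 539 normalised reads on the positive side of the ES cell comparison, against 609 and 471 on the negative side, and the sides overlapped. Rps27a, made as a fusion with ubiquitin, had 547 and 529 against 586 and 419, and its sides overlapped too. Rpsa, also described as a laminin receptor, had log2 fold changes of −0.03 ± 0.22 (SE) in ES cells and −0.10 ± 0.23 in blastocysts in the authors' deposited tables. None of these genes stood away from 0 in either material.

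The 6 paralogs were lower than their standard partners in each material, per kilobase of the longest protein-coding transcript. In blastocysts the levels per kilobase were 108 for Rpl10l and 2127 for Rpl10, 97.5 for Rpl22l1 and 411 for Rpl22, and 485 for Rps27l and 850.4 for Rps27. In ES cells they were 42.4 and 906, 116 and 231, and 216 and 1092 for the same pairs. Rpl10l, an intronless relative of Rpl10 known from male germ cells, had 56.7 and 54.0 normalised reads on the positive side of the ES cell comparison, against 45.6 and 17.4 on the negative side. The sides lay apart, and the lowest was again negative-side column 2. The authors' deposited tables gave Rpl10l 0.48 ± 0.33 (SE) in ES cells and −1.15 ± 0.70 in blastocysts, neither past the test.

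Rpl22l1, which can take the place of Rpl22, had 71.9 and 76.4 normalised reads against 72.3 and 36.7 in ES cells. In blastocysts, where its low mean of 53.8 allowed a solution, it had 71.4, 89.3 and 13.7 normalised reads on the positive and 40.8, 55.7 and 51.8 on the negative side. The positive side held both the highest and the lowest column, so the sides overlapped. Its partner Rpl22 had 442 and 528 against 509 and 418 in ES cells, also overlapping.

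Rpl36al had 92.8, 118 and 77.7 normalised reads on the positive and 129, 84.7 and 92.1 on the negative side in blastocysts, with overlapping sides. Rps27l, a paralog of Rps27 known as a p53 target, had 125 and 125 against 115 and 131 in ES cells, a ratio of negative-side column 1 to column 2 of 0.875, unlike that of Rps27 (1.499). Rpl7l1 had 396 and 340 against 347 and 305. Rpl39l, a relative of Rpl39 known from testis, had only 7.98 and 19.8 against 25.7 and 19.3 in ES cells, where counting error is large. Of the 6 paralogs 5 were positive in ES cells and 5 of the 6 negative in blastocysts, and none passed an unadjusted p-value of 0.05 in either of the authors' deposited tables.

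The level of the family was compared next. Material and library method cannot be told apart here, since embryos and ES cells were prepared differently, so the levels are a description. In the authors' deposited tables the summed means of the 83 genes were 2.17% of all summed means in blastocysts and 3.71% in ES cells. Over the genes listed in both tables the shares were 2.87% and 3.73%. Lars2 alone held 20.9% of the summed blastocyst means, and without it the shares over the shared genes were 3.98% and 3.74%, so the order of the materials turned with this 1 gene.

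Per kilobase of the longest protein-coding transcript, the median level in the authors' deposited tables was 981 normalised counts in blastocysts and 594 in ES cells, against 20.4 and 14.9 over all protein-coding genes with a mean above 0. Of the 83 genes, 74 were in the top 5% of protein-coding genes by this level in blastocysts and 76 in ES cells. Rpl4 was highest in blastocysts, at 4897 per kilobase, followed by Rplp1 (3723), Rpl8 (3331) and Rps2 (3052). In ES cells Rplp1 (3241), Rps12 (2185) and Rps4x (1957) were highest, and Rpl8 (1569) was also among the highest 5. These ranks depend on the transcript length used: with the median transcript length 3 of the 5 blastocyst genes and 2 of the 5 ES cell genes stayed among the highest 5.

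The lowest levels per kilobase were those of paralogs and a few standard genes. In blastocysts they were Rpl24 (28.2), Rpl23a (64.5), Rpl36al (77.5), Rpl22l1 (97.5) and Rpl7l1 (100.4). In ES cells they were Rps16 (15.0), Rpl39l (22.6), Rpl10l (42.4), Rpl36al (64.7) and Rps15a (110). Rps15a is low only against its longest transcript of 5179 bases, and had 897 per kilobase of its median transcript. Rpl24, Rpl23a and Rps16 encode proteins of every standard ribosome, and each was low in 1 material only.

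Between the tables the same gene can be compared without a length. The mean was higher in the blastocyst table for 75 of the 83 genes, with a median ratio of 1.68 and a middle range of 1.28 to 2.23. The tables were normalised separately, and over all 11472 genes with a mean above 0 in both, 63.8% were higher in the blastocyst table, with a median ratio of 1.501 and a middle range of 0.648 to 2.94. The median of the 83 genes thus lay inside the middle range of all genes. Over the 83 genes, which share these libraries and their depth, the log2 levels per kilobase had Pearson's r of 0.66 and Spearman's rho of 0.80. Without the 5 genes with a mean under 50 in either table, r was 0.87 and rho 0.84; this filter by its construction removes genes that are low in 1 table. In rank of level per kilobase, Rpl23a, Rpl24, Rps27, Rpl26 and, tied at a difference of 22 places, Rpl39 and Rps3a1 stood most above their blastocyst place in ES cells. Rps16, Rps10, Rps26, Rps15 and Rpl11 did so in blastocysts, where the means of the last 4 were 2.95 to 4.17 times those in ES cells.

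**Figure D4:**
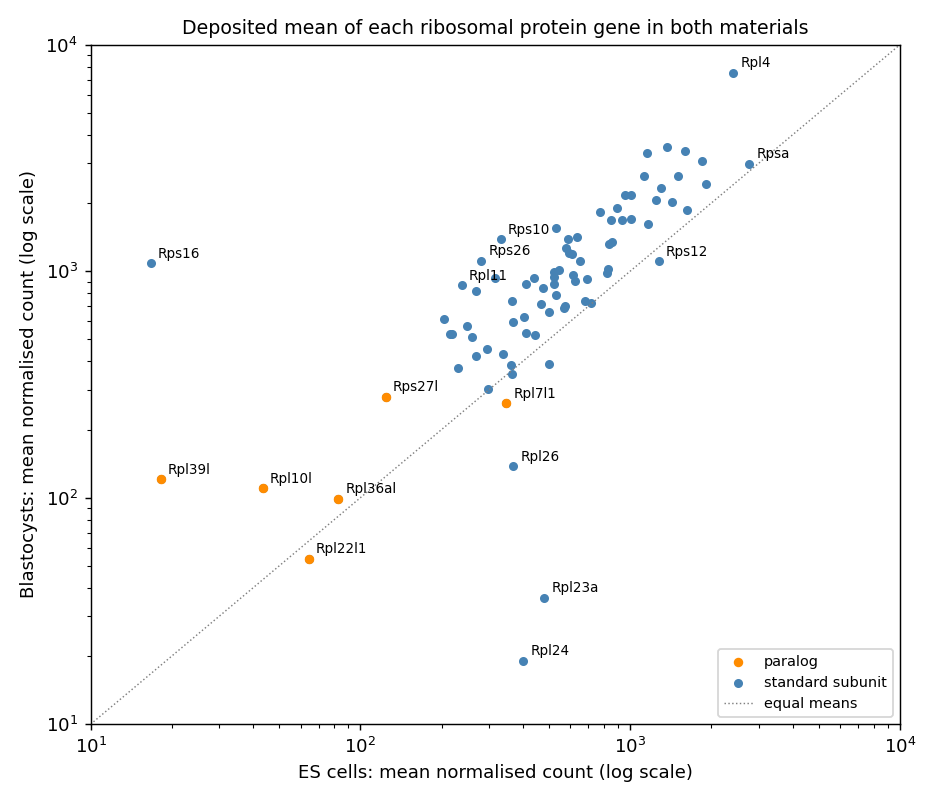
Deposited mean normalised count of each ribosomal protein gene in ES cells (horizontal, log scale) and blastocysts (vertical, log scale), with the dotted line of equal means. Most genes lie just above the line, Rps16 far above it (1087 against 16.7), and Rpl24 and Rpl23a far below it.

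Rps16 (chromosome 7, from 28350652), a small subunit gene, had means of 1087 (blastocysts) and 16.7 (ES cells) in the authors' deposited tables, a ratio of 65.2. Its ES cell columns had 21.6, 14.5, 14.3 and 16.4 normalised reads, so it was low in each of them. The ES cell table gives its end as 28353155 and the blastocyst table as 28352696, so the tables used different gene models for it. Coordinates also differed for other genes, among them Rpl13a, Rpl28 and Rps24, whose ratios of blastocyst to ES cell mean were 1.74, 3.06 and 1.24. Whether the gene model had a part in the Rps16 gap was not tested.

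Rpl24 (chromosome 16, 55966275 to 55971435) went the other way, with means of 19.1 (blastocysts) and 401 (ES cells) in the authors' deposited tables. Its blastocyst columns had 10.7, 43.6 and 11.4 normalised reads on the positive and 16.1, 26.8 and 5.75 on the negative side. Its ES cell columns had 401, 387, 448 and 367, each above all 6 blastocyst columns. In GENCODE M21 71.5% of its exon bases are shared with Gm28037 on the same strand, which was at 0 in blastocysts.

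Rpl23a (chromosome 11, 78180932 to 78183584), which lies at the exit of the peptide tunnel, had means of 36.1 (blastocysts) and 481 (ES cells) in the authors' deposited tables. Its blastocyst columns had 26.4, 40.6 and 20.6 normalised reads on the positive and 53.2, 40.1 and 36.0 on the negative side. All 6 columns were low, and the sides overlapped. Of its exon bases 55.4% are shared with Tlcd1 on the opposite strand, a gene with a blastocyst mean of 29.6. Such overlap of over 50% was found in 7 of the 83 genes, in 3 of them on the same strand. Among them Rpl13a (59.3%, same strand) had a blastocyst mean of 2622 and Rpl35 (68.3%, opposite strand) of 421. Whether overlap had a part in the low values of Rpl24 and Rpl23a was not tested.

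Copies of these genes bear on such values, because reads from a gene and a near-identical copy can be split or dropped by the authors' counting. For 78 of the 83 genes, GENCODE M21 held a transcript of another gene identifier with at least 95% identity over 80% of the coding sequence. Rpl21 had the most such copies, 57. Position was not checked, so an overlapping gene could count as a copy. Copies of 75 genes were listed with reads in blastocysts, and the summed mean of the copies exceeded that of the gene itself for 4: Rpl24, Rpl23a, Rpl26 and Rps3a1. Rps3a3, a processed copy of Rps3a1, had a blastocyst mean of 1195, above the 721 of Rps3a1 itself, and Gm15772, a copy of Rpl26, had 339 against 138. Rplp0 had copies with a summed mean of 1127 beside its own 3519. The values of all these genes are therefore uncertain to the extent that reads were shared, and whether counting of copies made the gaps between the tables was not tested.

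Other ribosome-related genes in the authors' deposited tables give the setting of the family. Of the 77 mitochondrial ribosomal protein genes 76 were tested in blastocysts, 70 of them negative, with a median log2 fold change of −0.62, 0 past the adjusted threshold and 5 at an unadjusted p-value under 0.05, all negative. The 52 ribosome biogenesis genes had a median of −0.25 with 38 negative and the 33 translation factors −0.19 with 22 negative in blastocysts, again with 0 past the adjusted threshold. Each of these lists had 2 genes at an unadjusted p-value under 0.05 (3.85% and 6.06%). The 18 other ribosome and TOP genes had a median of −0.05. In ES cells the medians of these 4 lists were 0.02, 0.01, −0.00 and −0.00. The mitochondrial genes have lower means than the cytosolic ones (a median of 92.7 against 929 in blastocysts) and larger errors (a median of 0.66 against 0.30), and the lists were not tested against each other.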

How the data were processed

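RNA sequencing was analysed from 2 tables of results, 1 for blastocysts and 1 for ES cells. Per the submitters' processing notes, STAR 2.4.0b, bedtools, SAMtools, featureCounts of Subread 2.0.1, DESeq2 1.34.0 and the build GRCm38 were used. The signal column is the authors' mean over libraries of read counts divided by size factors, per the file headers. Fold changes and their standard errors are on the authors' log2 scale, per the file headers. As a score the authors deposited the Wald statistic, and the p-value columns are the authors' p-value and Benjamini-Hochberg adjusted p-value. The tables hold no values per sample, so no test over samples was run, and the authors' adjusted p-value under 0.05 was used throughout. The blastocyst libraries were each of 1 embryo, per the labels' protocols. Whether the ES cell samples are separate lines or cultures is not stated, so there p-values measure only the spread between these samples, which may be technical.

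Reads per column were solved from the means, which are given to 15 significant digits, for ES cell means of 15 to 1000. A column was placed on a side by the sign of the fold changes it goes with. The solver and the adjustment were tested on simulated data. The reads are amplified and carry no molecular identifiers, so they give counting precision only. The positive-side ES cell columns had size factors of 1.25 and 0.759, the negative-side ones 1.05 and 1.03. Lengths, copies (blastn 2.17.0) and overlaps came from GENCODE M21, and sequences near the start from RefSeq. Genes were named by rule: Dis3l, genes with an unadjusted p-value under 0.05, the 5 most extreme Wald statistics, levels and rank differences each way, X-linked genes, paralogs with their partners, and genes of known role. The values of 1 gene named by this rule are not reported here. The members and lists were chosen with earlier results of these data known. Python 3.11.15, numpy 2.4.6, pandas 2.3.3 and scipy 1.17.1 were used.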

Additional observations from a re-analysis of the deposited data

How the results depend on the processing

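The count of ribosomal protein genes past the adjusted threshold was 0 in both tables at a threshold of 0.01 and when the adjustment ran over genes with a mean of at least 50, over every gene with a p-value or over autosomal genes. At an unadjusted p-value under 0.05 it was 1 (blastocysts) and 4 (ES cells). The median log2 fold change in blastocysts was −0.13 with all genes, −0.12 without paralogs or without X-linked genes and −0.09 when centred on all tested genes; in ES cells it was 0.05 to 0.06 throughout. The share of summed means in blastocysts was 2.87% over genes listed in both tables and, in an alternative chosen after seeing the data, 3.98% without Lars2. The correlation of levels (Pearson's r) was 0.52 over standard subunits and 0.87 without the lowest genes. Leaving out 1 ES cell column at a time, the median log2 ratio of the sides ranged from −0.14 to 0.33. With all columns 14 of the 66 solved genes had sides apart, the positive side higher in 10 (15.2%) and the negative in 4 (6.06%). Over all 9510 solved genes these shares were 20.3% and 20.3%. With 1 column left out the count of 14 became 19 to 62. Fewer columns then need to be apart, and the shares over all genes were not computed for that setting. Adding 10 genes with 1 solution near the deposited fold change, chosen after seeing the data, moved neither the median ratio of the sides nor that of the negative-side columns by over 0.1 on the log2 scale. No paired analysis was possible because the tables hold no values per sample. Depth limits Rpl24, Rpl23a and Rpl22l1 in blastocysts and Rps16, Rpl39l and Rpl10l in ES cells, whose means were at most 53.8.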
